A study of Mus musculus with 14 samples.

Results

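Neutrophil granule and oxidase genes were described here as a set of 30 named genes, found by their gene name in a merged list of open chromatin regions (peaks) of the mouse blood system. The list gave 147 of its 92842 peaks to these 30 genes, out of 19105 genes named in it. Open chromatin had been measured by ATAC-seq, in which the transposase Tn5 cuts and tags accessible DNA, in 7 cell types sorted with antibodies from adult wild-type C57BL/6 mice of 8 to 12 weeks: MPP (multipotent), CMP (common myeloid), CLP (common lymphoid), GMP (granulocyte/macrophage), MEP (megakaryocytic-erythroid), ProB (B cell) and ProT (T cell) progenitors, 2 libraries each. ProT cells came from thymus and the others from bone marrow, and no group carried a further allele or treatment. Mature neutrophils were not among the sorted groups, and GMP cells are among the sorted cells that give rise to them. The list holds the 14 libraries merged, with no value per library, so a peak here was open in at least some of the cells, in which cell type is not shown, there is no replicate error, and the sorted cells could not be checked against their markers.

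Neutrophils store their weapons in granules that are filled in sequence as the cell matures. Primary (azurophil) granules form first, in promyelocytes, and hold myeloperoxidase and serine proteases. Secondary (specific) granules follow with lactoferrin and other antimicrobial proteins, and tertiary granules hold gelatinase. The phagocyte NADPH oxidase makes superoxide from membrane and cytosolic subunits that assemble on activation. The factors C/EBP, PU.1, Runx and Myb are known to drive many of these genes in the myeloid lineage.

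Each of the 30 genes had at least 1 peak, while 75.1% of the 21896 coding genes of the RefSeq table had 1. The members were chosen with earlier results of these data known and found by name in the list. The count of 30 is therefore no result about these genes. The members had a median of 4 peaks per gene (mean 4.90 ± 3.29, SD over genes, n = 30 genes), and the other 16438 coding genes with a peak had a median of 3 (mean 4.86 ± 5.33). In all, 19 of the 30 members (63.3%, exact interval 43.9 to 80.1, counting error only) had 4 or more peaks. Of all coding genes with a peak, 44.5% had as many, and the interval includes this share. A single peak was found at 2 members (6.67%, 0.818 to 22.1), against 23.2% of other coding genes with a peak. With 10 or more peaks there were also 2 members, against 12.6%, which lies inside the same interval. Median counts ran from the primary granule genes (median 2, 5 genes) over the secondary granule genes (median 3, 8 genes) to the oxidase genes (median 7, 4 genes). The class called cytosolic here also had a median of 7 (6 genes). It was set by hand and also holds enzymes and the partner protein Alox5ap, so its name does not give the place of every product. Across the members the number of peaks rose with the space around the gene, taken as the stretch between the midpoints to the nearest other gene starts (Spearman rho = 0.65, n = 30 genes, which share the same peak list). A relation is partly built in, because a peak carries the name of the nearest start. Of the 147 member peaks, 145 lay inside this space. This space had a median of 17.7 kb for primary granule, 34.0 kb for secondary granule, 57.5 kb for oxidase and 129 kb for cytosolic members. The order is like that of their median peak counts, except that oxidase and cytosolic members tie at 7 peaks. Per 100 kb of this space the medians were 17.1 peaks for primary granule, 11.5 for secondary granule, 13.9 for oxidase and 8.96 for cytosolic members. The primary granule genes, lowest by median count, thus had the highest median density of these 4 classes. That median is the value of Prtn3, with 1 peak in 5.84 kb, and Elane had 1 peak in 5.59 kb. The 5 genes ranged from 3.02 (Bpi) to 22.6 (Ctsg), so this rank rests on few peaks. Mmp9, the tertiary granule gene, had 4 peaks in 24.5 kb. Whether space accounts for the class differences was not tested.

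**Figure D1:**
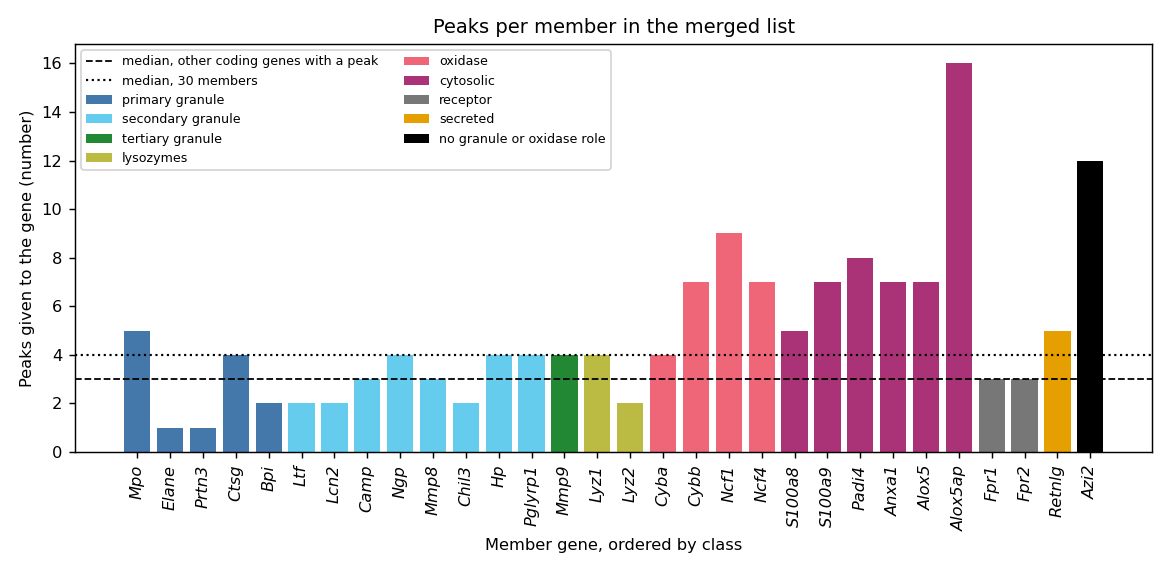
Number of peaks given to each member, ordered and coloured by class. The dashed line is the median of the other coding genes with a peak (3) and the dotted line that of the members (4). The 14 granule genes sit between 1 and 5 peaks, the oxidase genes between 4 and 9, and Alox5ap is highest with 16.

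A peak within 1 kb of the transcription start site (TSS) was present at 24 of the 30 members (80%, exact 95% interval 61.4 to 92.3, counting error only), close to the 73.8% of all coding genes with a peak. The interval includes the background, so no difference was detectable with 30 genes. The peak nearest to the start was centred from 217 bp upstream (Cyba) to 103 bp downstream (Anxa1) in these 24 genes. The other 6 members, without a peak so close, were the neutrophil elastase gene Elane, the proteinase 3 gene Prtn3, the lysozyme gene Lyz1, the chitinase-like gene Chil3 and the formyl peptide receptor genes Fpr1 and Fpr2. All 4 oxidase genes and all 6 genes of the class called cytosolic had such a peak, as did 7 of 8 secondary granule genes and 3 of 5 primary granule genes.

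Peaks named for the members lay closer to the start of their gene than peaks in general. A peak carries the name of the nearest start, so its distance is limited by the space around the gene. This space was not computed for other genes, and its part in these distances was not tested. Between 1 and 10 kb from the TSS lay 62 of the 147 member peaks (42.2%, exact 95% interval 34.1 to 50.6), where 21.1% of all peaks lay in that range. Within 1 kb lay 27 (18.4%, 12.5 to 25.6), near the 16.2% of all peaks. Over 50 kb away lay 14 (9.52%), 8 of them given to Azi2, against 25.7% of the peaks of all other genes. The median distance from the TSS was 7152 bp for member peaks and 16899 bp for the peaks of other coding genes. A peak 1 to 10 kb upstream was found at 21 of the 30 members, and at 33.4% of the other coding genes with a peak. These peaks are not independent of each other, since they share genes and loci, and the intervals do not allow for that.

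**Figure D2:**
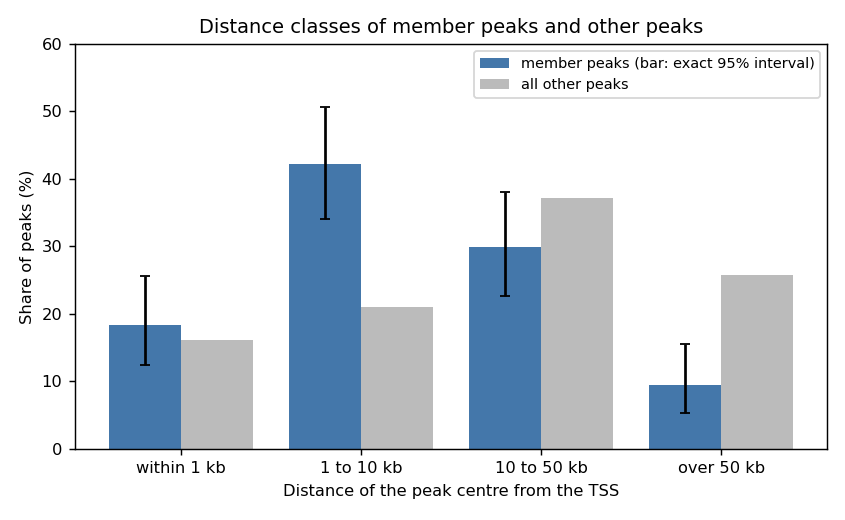
Share of the 147 member peaks (blue, with exact 95% intervals for counting error) and of all other peaks (grey) by distance of the peak centre from the TSS. The members exceed the other peaks at 1 to 10 kb (42.2% against 21.0%) and fall below them over 50 kb (9.52% against 25.7%).

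Sequence of the starts was available for 26 of the 30 members in the RefSeq promoter table (build GRCm38.p6, the assembly of mm10), from 250 bases before to 50 after the start. Of these 26 windows, 20 overlapped a peak. The stretches of 250 bases before the start are shown for the 8 members with a peak over the window and the most matches to motifs of the 4 myeloid factors (ties taken in the order of the member list; matches counted over all 300 bases), and for Elane, which has no peak there and was added after its values had been seen. Capitals mark matches to C/EBP (TTNNGCAA), PU.1 (GAGGAA), Runx (TGTGGT) and Myb (CAACTG) on either strand. Sequences run 5′ to 3′ on the strand of the gene. The Runx matches of Bpi and Ltf at 30 and 26 and the PU.1 match of Cybb at 10 lie past the start and are not in the stretches shown.
Ctsg, chr14:56102575-56102824, minus strand: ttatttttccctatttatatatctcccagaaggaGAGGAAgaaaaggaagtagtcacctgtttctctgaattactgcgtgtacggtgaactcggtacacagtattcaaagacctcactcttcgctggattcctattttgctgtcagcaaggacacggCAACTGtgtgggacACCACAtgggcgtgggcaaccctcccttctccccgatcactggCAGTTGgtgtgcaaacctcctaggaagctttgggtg
Bpi, chr2:158257991-158258240, plus strand: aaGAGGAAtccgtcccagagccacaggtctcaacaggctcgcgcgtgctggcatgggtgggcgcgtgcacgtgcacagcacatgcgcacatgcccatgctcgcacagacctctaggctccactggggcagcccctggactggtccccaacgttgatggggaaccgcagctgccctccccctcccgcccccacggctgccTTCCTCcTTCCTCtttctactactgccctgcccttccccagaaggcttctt
Mpo, chr11:87793534-87793783, plus strand: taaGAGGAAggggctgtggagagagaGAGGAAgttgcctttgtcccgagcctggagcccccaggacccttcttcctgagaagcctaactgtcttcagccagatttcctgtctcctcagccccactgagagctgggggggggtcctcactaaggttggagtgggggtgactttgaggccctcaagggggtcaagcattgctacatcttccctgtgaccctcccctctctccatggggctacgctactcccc
Elane, chr10:79886062-79886311, plus strand: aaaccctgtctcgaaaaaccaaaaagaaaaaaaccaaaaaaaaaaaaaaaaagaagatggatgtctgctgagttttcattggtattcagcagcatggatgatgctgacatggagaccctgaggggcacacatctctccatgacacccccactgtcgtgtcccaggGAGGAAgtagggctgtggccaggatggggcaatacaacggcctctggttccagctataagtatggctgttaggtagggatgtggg
Ltf, chr9:111019042-111019291, plus strand: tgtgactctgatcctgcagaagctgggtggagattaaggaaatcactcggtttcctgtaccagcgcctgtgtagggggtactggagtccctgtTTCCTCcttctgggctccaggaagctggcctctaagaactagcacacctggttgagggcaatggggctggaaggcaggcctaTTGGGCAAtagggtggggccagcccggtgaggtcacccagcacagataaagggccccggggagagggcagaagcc
Pglyrp1, chr7:18884440-18884689, plus strand: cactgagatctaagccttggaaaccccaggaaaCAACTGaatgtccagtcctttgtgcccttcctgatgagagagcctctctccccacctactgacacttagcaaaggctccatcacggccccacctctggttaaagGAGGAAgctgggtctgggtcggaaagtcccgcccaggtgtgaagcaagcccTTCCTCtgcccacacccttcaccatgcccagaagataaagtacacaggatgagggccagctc
Cybb, chrX:9469325-9469574, minus strand: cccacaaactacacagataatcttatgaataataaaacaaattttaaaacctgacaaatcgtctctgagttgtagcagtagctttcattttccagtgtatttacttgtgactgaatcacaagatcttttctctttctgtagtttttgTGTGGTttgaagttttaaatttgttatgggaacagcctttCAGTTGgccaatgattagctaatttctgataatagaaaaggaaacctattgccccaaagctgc
S100a8, chr3:90668821-90669070, plus strand: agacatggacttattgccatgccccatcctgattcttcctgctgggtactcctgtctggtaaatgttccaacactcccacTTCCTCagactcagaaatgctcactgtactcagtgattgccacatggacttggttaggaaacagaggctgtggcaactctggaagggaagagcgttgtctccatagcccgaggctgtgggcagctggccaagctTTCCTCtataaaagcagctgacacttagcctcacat
S100a9, chr3:90695722-90695971, minus strand: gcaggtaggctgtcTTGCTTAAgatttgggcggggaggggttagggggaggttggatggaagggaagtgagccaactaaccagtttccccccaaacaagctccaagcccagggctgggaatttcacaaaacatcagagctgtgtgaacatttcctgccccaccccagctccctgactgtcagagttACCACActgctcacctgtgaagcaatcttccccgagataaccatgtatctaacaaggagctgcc

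In the Ctsg sequence, Myb letters begin at positions -93 and -36 and the Runx letters at -79 (negative positions count bases back from the start). The Bpi sequence holds neighbouring PU.1 matches at -51 and -44, and the S100a8 sequence a PU.1 match at -36. Elane has the PU.1 letters at -85 although no peak covers them. The Ltf sequence has a C/EBP match at -75. A match is only a run of letters and was not tested for binding.

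Members matched the PU.1 letters in 14 of 26 windows (53.8%, exact 95% interval 33.4 to 73.4), where 27.4% of all 21262 coding promoter windows of the same length did. The C/EBP letters occurred in 8 (30.8%, 14.3 to 51.8), against 10.2% of all, with 2 matches in Ngp. In the 150 bases before the start alone, they occurred in 4 (15.4%, 4.36 to 34.9), against 5.05% of other coding promoters, and this interval includes the background. The PU.1 letters occurred there in 8 (30.8%, 14.3 to 51.8), against 13.7%. Runx letters occurred in 7 (26.9%, 11.6 to 47.8) against 15%, and Myb letters in 3 (11.5%, 2.45 to 30.2) against 12.5%, and for both the interval includes the background. The GATA motif AGATAA occurred in 7 of the 26 (26.9%, 11.6 to 47.8) against 9.65%, and the TATA box TATAAA in 10 (38.5%, 20.2 to 59.4) against 12.6%. The GC box GGGCGG occurred in 8 (30.8%, 14.3 to 51.8) against 46.2%. Motifs were counted separately on both strands and may overlap. At least 1 of the C/EBP, PU.1, Runx and Myb motifs occurred in 19 of the 26 windows, and in 50.8% of the other coding promoters. Without any of these 4 were Camp, Chil3, Cyba, Ncf1, Padi4, Fpr1 and Azi2.

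The windows of the members were poor in CpG. The ratio of observed to expected CpG had a median of 0.17, with 0.068 in Lyz2 as the lowest value, against 0.57 in other coding promoters and 0.77 in those that overlap a peak. It was under 0.5 in 25 of 26 members, against 45.5% of other coding promoters and 17.5% of those with a peak. The exception was Azi2 with a ratio of 1, an adaptor of the kinase TBK1 that has no known role in granules or the oxidase. GC content was also lower, with a median of 51.0% in members and 56.3% in other coding promoters. The part of base composition in the motif shares was not tested.

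**Figure D3:**
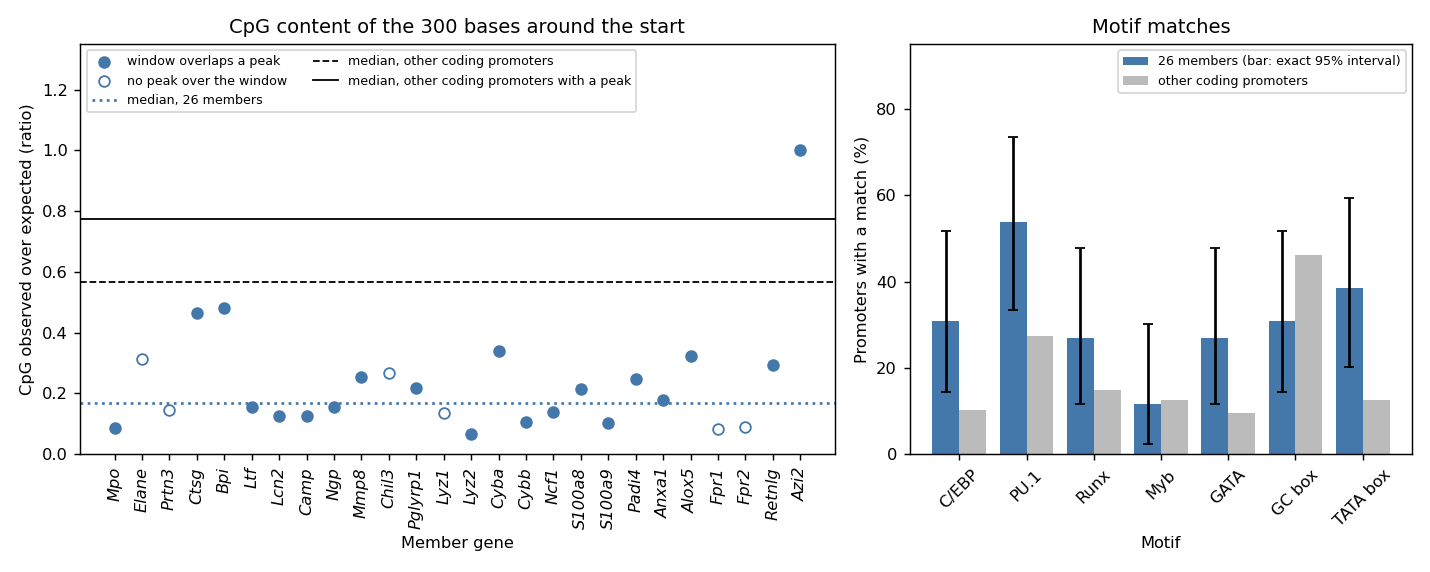
Left, ratio of observed to expected CpG in the 300 bases around the start of 26 members, filled where a peak overlaps the window, with medians of members (dotted), other coding promoters (dashed) and those with a peak (solid). Right, share of members (blue, exact 95% intervals) and other coding promoters (grey) with each motif. All members except Azi2 lie under 0.5.

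Mpo encodes myeloperoxidase, which makes hypochlorous acid, and led the primary granule genes with 5 peaks. A promoter peak (chromosome 11, 87793479 to 87793977) was centred 56 bp upstream of the start, and a further peak (87795025 to 87795523) lay in exon 4 of 14. Upstream, an intergenic peak (87790011 to 87790509) lay 3.52 kb away, and peaks at 14.2 kb (87779347 to 87779845) and 15.0 kb (87778509 to 87779007) lay in introns 24 and 22 of 31 of its neighbour Tspoap1. Thus 4 of the 5 peaks lay on the upstream side. Another peak within 10 kb of the Mpo gene was given to Lpo, which encodes lactoperoxidase.

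The serine protease genes Prtn3 and Elane lie side by side on chromosome 10, with starts 6.65 kb apart, and had 1 peak each. The Prtn3 peak (79877755 to 79878253) was centred 1.66 kb upstream of its start, in intron 3 of 4 of a non-coding transcript. The Elane peak (79883691 to 79884189) was 2.37 kb upstream of Elane, at the termination site of Prtn3. No other peak lay between the starts. Beyond Elane, 2 peaks were given to Cfd, the complement factor D gene, at 3.24 kb and 6.64 kb from the Elane start. Counted by place rather than by the gene named, 4 peaks lay within 10 kb of Elane.

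Ctsg, which encodes cathepsin G, another protease of primary granules, had 4 peaks on chromosome 14. They lay over the start (56102314 to 56102812, centred 11 bp downstream), at the end of the gene (56098882 to 56099380) and upstream at 2.67 kb (56104997 to 56105495) and 3.23 kb (56105556 to 56106054). Bpi encodes a protein that binds bacterial lipopolysaccharide. Its 2 peaks on chromosome 2 were both near the start, centred 4 bp upstream (158257988 to 158258486) and 707 bp downstream in intron 1 of 14 (158258699 to 158259197). No further peak was given to it along its 26.5 kb, and a peak at its end was given to Lbp, its neighbour.

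Among the 8 secondary granule genes, 19 of the 24 peaks lay upstream of the start. Over the 3 granule classes 31 of 41 peaks did, and 52.4% of all member peaks, against 42.3% of the peaks of other genes. These counts cover only peaks that carry the member's name. Within 10 kb of the granule genes, most peaks given to genes that are no members lay downstream of the member's start. Those given to Mmp27, Cfd and Slc12a5 are among them, while those given to Ptges2 and Ptpn23 lay upstream. Whether the upstream lean holds when peaks are counted by place was not tested. Ltf encodes the iron-binding lactoferrin and had 2 peaks, at the start (chromosome 9, 111018941 to 111019439) and 12.7 kb upstream. Lcn2, whose product captures bacterial siderophores, had peaks 180 bp (chromosome 2, 32387670 to 32388168) and 1.62 kb upstream. Camp encodes the cathelicidin precursor and had peaks 158 bp (chromosome 9, 109849365 to 109849863), 5.09 kb and 12.1 kb upstream. The peaks named for these 3 genes were all upstream. Downstream, a peak 5.85 kb from the Lcn2 start was given to 1110008P14Rik, and peaks 27.1 kb and 28.2 kb from the Ltf start, past the end of the gene, were given to Ccrl2.

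Ngp, which encodes a granule protein related to cathelicidins, had 4 peaks, among them 1 at the start (chromosome 9, 110419542 to 110420040), 1 at the end of the gene and 1 in an intron of Klhl18, 20.9 kb downstream. Hp encodes haptoglobin, which binds free haemoglobin, and had 4 peaks, with 1 at the start (chromosome 8, 109578854 to 109579352) and 3 upstream, of which the farthest, at 14.4 kb, lay in the 3′ UTR of Dhodh. Pglyrp1, a peptidoglycan recognition protein gene, also had 4, with 1 at the start (chromosome 7, 18884407 to 18884905) and 2 inside Ccdc61. Over all members 60 peaks lay in or at the member's own gene, 66 were intergenic and 21, given to 11 members, lay in or at another transcript, 6 of these 21 being peaks of Ncf1.

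Mmp8, the neutrophil collagenase gene, had 3 peaks, at the start (chromosome 9, 7558063 to 7558561) and at 3.96 kb and 4.57 kb upstream. A peak in its last exon, exon 10 of 10 (7567240 to 7567738), was given to the neighbouring protease gene Mmp27, as were 5 more within 10 kb of the gene. Chil3, which encodes the chitinase-like protein Ym1, had 2 peaks only, 5.16 kb (chromosome 3, 106172472 to 106172970) and 7.59 kb upstream, and both lay in LINE-1 elements of the family L1Md_F2. Mmp9 encodes gelatinase B, the marker enzyme of tertiary granules, and had 4 peaks. They lay 143 bp upstream (chromosome 2, 164947827 to 164948325), 5.17 kb and 9.37 kb upstream, and 5.19 kb downstream in exon 11 of 13.

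Lysozymes occur in all granule types, and Lyz2 is the form of myeloid cells while Lyz1 is best known from Paneth cells of the gut. The genes lie in tandem on chromosome 10, with starts 10.6 kb apart. Lyz2 had 2 peaks, at the start (117281955 to 117282453, centred 68 bp downstream) and at its end. Lyz1 had 4, of which none lay within 1 kb of its start. The nearest was in its 3′ UTR (117288177 to 117288675), 4.44 kb downstream, and the others were intergenic, 9.07, 31.1 and 37.9 kb upstream. The windows around both starts share 254 of 300 aligned bases (84.7%). Chil3 and its neighbour Chil4 share 83.7%, and Chil4 had 1 peak and none within 1 kb. How reads shared between such copies were placed is not given in the sources used here, so the peaks of Lyz1, Lyz2 and Chil3 are uncertain.

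The oxidase genes had 27 peaks in all, of which 16 lay in or at the gene itself. Cybb encodes the catalytic subunit of the oxidase and lies on the X chromosome. Its 7 peaks lay at the start (9469057 to 9469555, centred 18 bp downstream), 1.63 kb upstream in an LTR33A element (9470707 to 9471205), and in introns: intron 1 of 12 (9466944 to 9467442), intron 3 (9462694 to 9463192 and 9460507 to 9461005), intron 6 (9452406 to 9452904) and intron 8 (9447189 to 9447687). The last was 21.9 kb downstream. Cyba encodes the membrane partner of Cybb and had 4 peaks on chromosome 8. They were centred 217 bp upstream (122432908 to 122433406), in intron 1 of 4 at 2.61 kb (122430080 to 122430578) and 4.62 kb (122428069 to 122428567), and 5.22 kb upstream in intron 4 of 9 of Mvd (122437909 to 122438407). Both membrane subunits thus had intronic peaks beside the peak at the start.

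Ncf4, a cytosolic subunit that binds a phosphoinositide, had 7 peaks on chromosome 15. Besides the start (78244660 to 78245158, centred 98 bp downstream), 3 lay in intron 1 of 9 at 1.55 kb (78246114 to 78246612), 3.07 kb (78247632 to 78248130) and 3.82 kb (78248382 to 78248880). A pair lay in intron 7 (78257374 to 78257872 and 78258160 to 78258658), and the last 5.12 kb upstream (78239438 to 78239936). Ncf1, the cytosolic organizer subunit, had the most peaks of the oxidase genes with 9, on chromosome 5, but only the start peak (134229453 to 134229951, centred 77 bp upstream) touched its own gene. Intergenic peaks lay 2.00 kb (134231373 to 134231871) and 3.12 kb upstream (134232500 to 134232998). At the termination site of Gtf2i, a general transcription factor gene, lay a peak 7.28 kb upstream (134236659 to 134237157). Introns of Gtf2i held 4 more peaks (134244018 to 134244516, 134258375 to 134258873, 134266427 to 134266925 and 134269701 to 134270199), up to 40.3 kb upstream, and an intron of Gtf2ird2 1 peak 15.0 kb downstream (134214360 to 134214858). By place, only 5 peaks lay within 10 kb of the Ncf1 gene.

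The class called cytosolic here held 50 peaks, 16 of them given to Alox5ap. S100a8 and S100a9 encode the subunits of calprotectin, an abundant protein pair of the neutrophil cytosol. Their starts lie 26.7 kb apart on chromosome 3, with 8 peaks between them, and the pair had 12 peaks over 47.2 kb. The start peaks were at 90668893 to 90669391 in S100a8 and at 90695456 to 90695954 in S100a9. Of the 5 peaks of S100a8, 2 lay in a Lx5c LINE-1 element upstream, at 4.63 kb and 5.62 kb. S100a9 had 7 peaks, of which 1 lay at the end of the gene, as was also the case for Ctsg, Ngp and Lyz2.

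Alox5ap, the partner protein that hands arachidonic acid to 5-lipoxygenase, had the most peaks of all members with 16. They spread from 35.8 kb upstream to 70.9 kb downstream, with 1 at the start (chromosome 5, 149264627 to 149265125), and 3 of them stood together near 70 kb, centred 69.6, 70.1 and 70.9 kb from the start. The gene of the lipoxygenase itself, Alox5, had 7 peaks, with 1 at the start (chromosome 6, 116460941 to 116461439) and 4 in introns up to 43.5 kb downstream. These enzymes act in leukotriene synthesis. Anxa1, the annexin that restrains inflammation, had 7 peaks on chromosome 19, from the start peak (20390319 to 20390817) in intron 1 of 12 to an intergenic peak 469 kb away, the farthest of any member. Padi4, which converts histone arginine to citrulline in extracellular traps, had 8. Its start peaks on chromosome 4 were centred 29 bp (140773983 to 140774481) and 823 bp upstream, 3 more lay inside its paralog Padi3, and a peak in intron 12 of 15 of Padi4 itself (140750286 to 140750784) was given to Padi6.

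**Figure D4:**
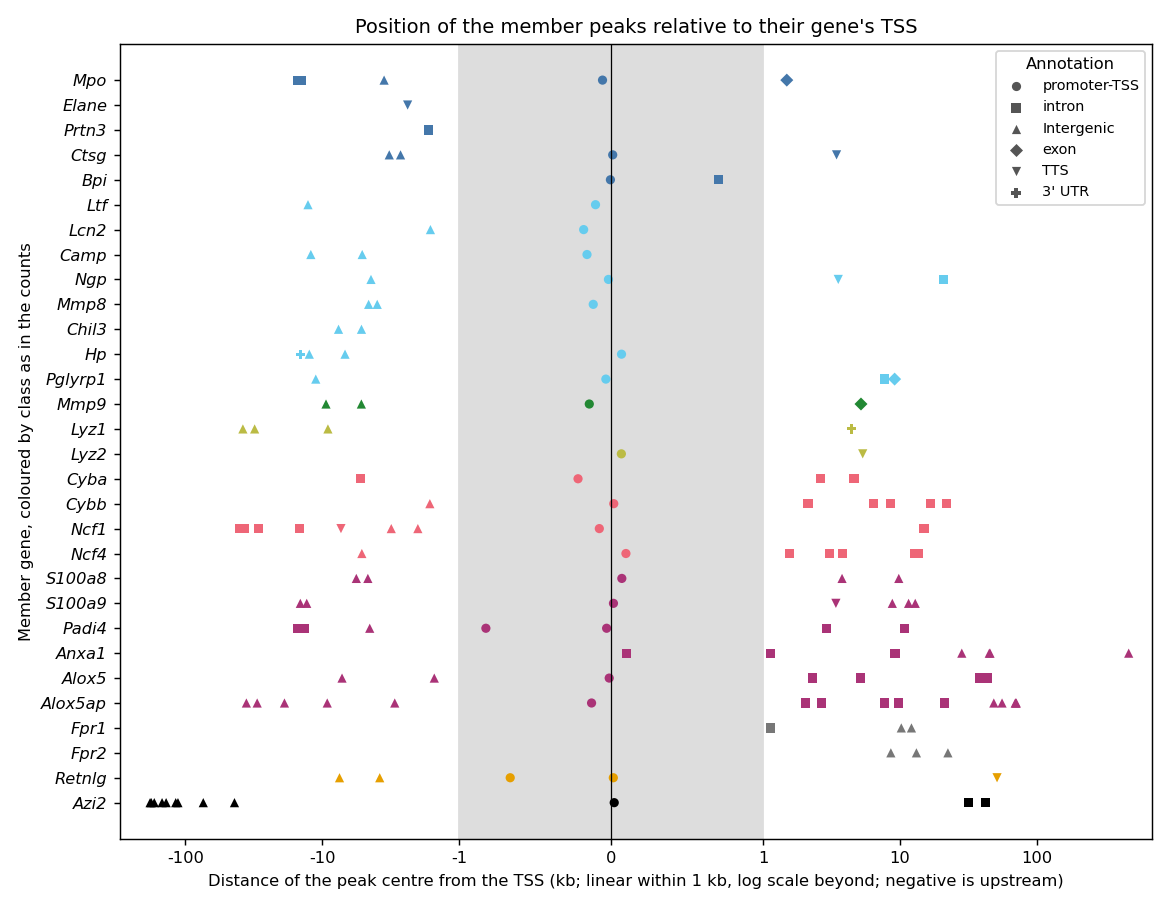
Position of each of the 147 peaks relative to the TSS of its gene (kb, linear within 1 kb and logarithmic beyond, negative is upstream), by annotation (symbol) and class (colour, as in the plot of peak numbers). The grey band spans 1 kb to each side. It is empty for Elane, Prtn3, Chil3, Lyz1, Fpr1 and Fpr2. Most peaks that carry the name of a granule gene lie to the left of the start, and peaks given to neighbouring genes are not shown.

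The formyl peptide receptor genes Fpr1 and Fpr2, which sense bacterial peptides, lie 3.89 kb apart on chromosome 17, facing away from each other, and no peak lay between their starts. Each had 3 peaks and all 6 lay downstream. An upstream peak could carry either name only between these starts, so with no peak there the side follows from the naming. The nearest Fpr1 peak (17882564 to 17883062) was centred 1.13 kb downstream in its only intron, and the nearest Fpr2 peak (17896157 to 17896655) 8.58 kb downstream. Retnlg, a resistin-like secreted protein gene of neutrophils, had 5 peaks, of which 2 lay within 1 kb of the start, at 15 bp downstream (chromosome 16, 48872374 to 48872872) and 663 bp upstream. The only other members with 2 peaks so close were Bpi and Padi4. Azi2 had 12 peaks, of which 1 lay at the start (chromosome 9, 118040294 to 118040792) and 9 upstream as far as 181 kb. Only 1 of them lay within 10 kb of the start.

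Repeats held 23 of the 147 member peaks (15.6%, exact 95% interval 10.2 to 22.5), near the 16% of all peaks. They were spread over 12 members, with 11 peaks in LTR elements (7.48%, against 6.60% of other peaks), 7 in LINEs (4.76% against 3.28%) and 3 in SINEs (2.04% against 4.15%). For all 3 the exact 95% interval includes the share of other peaks. Alox5ap had 4 such peaks, and S100a8, Padi4 and Azi2 3 each. None of the 13 peaks of primary granule genes lay in a repeat, but 13 peaks are too few to tell this from the 16%. Termination sites held 7 member peaks (4.76%, 1.94 to 9.57), against 1.60% of other peaks. At the end of their own transcript, 4 members had such a peak. Introns held fewer of the member peaks, 44 (29.9%, 22.7 to 38.0), against 42.0% of other peaks.

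Around the members, 25 peaks within 10 kb of a member gene were given to genes that are no members. The like count was not made for other genes, so whether 25 is many or few is not known. Mmp27 took 6 of them, Padi6 4, and Cfd, Ccrl2 and Slc12a5 2 each. Of these peaks, only those in the last exon of Mmp8 and in intron 12 of Padi4 were centred inside a member gene.

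Of the other genes of these functions, in 3 lists, all 26 had a peak and 24 had a peak within 1 kb, with a median of 5 peaks. For comparison, 75.1% of all coding genes had a peak, and 73.8% of those with a peak had one within 1 kb. The median was 3 among coding genes with a peak that are no members. The lists were chosen with earlier results of these data known, so these counts are no result about these genes. Among the partners of the oxidase, the voltage-gated proton channel gene Hvcn1 had 10 peaks, the small GTPase genes Rac1 and Rap1a 7 each, and Cybc1, a chaperone of Cybb listed under an older name, 1. The 15 genes of granule content and processing all had a peak within 1 kb. They were led by Ctsc, which activates the granule serine proteases, with 26 peaks, the integrin gene Itgam with 11 and Srgn, the proteoglycan that packs granule proteins, with 10. Of the 5 genes of lipid mediators and receptors, Ltc4s had 6 peaks, Lta4h 4, Ltb4r1 and C5ar1 3 each, and Fpr3 1, which was 3.25 kb from its start.

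Granule genes of other cell types had medians of 1 (mast cells and basophils), 0.5 (eosinophils) and 1.5 peaks (natural killer and cytotoxic T cells). Of 6 mast cell and basophil genes 4 had a peak and 1 a peak within 1 kb, with Cma1 at 3, Cpa3 at 2, Tpsb2 and Prss34 at 1 and Mcpt4 and Mcpt8 at 0. Of 6 eosinophil genes 3 had a peak and 1 a peak within 1 kb, with Prg3 at 3, Prg2 at 2, Ear1 at 1 and Epx, Ear2 and Ear6 at 0. The 6 genes of natural killer and cytotoxic T cells all had a peak, 4 of them within 1 kb, led by Prf1 with 4, Gzmb with 3 and Nkg7 with 2. All 6 surface genes of mature neutrophils had a peak within 1 kb, led by Cxcr2, Csf3r and Mmp25 with 6 each. Of these 6, Mmp25 and Cd177 are also among the 15 genes of granule content and processing. Of the coding genes of the RefSeq table, 75.1% had at least 1 peak. Of all coding genes with a peak, 73.8% had one within 1 kb. That share leaves out genes without a peak, which the mast cell, basophil and eosinophil lists include, so the 2 are not alike. Similarity to other gene copies was not measured for these lists, so where copies share reads a count of 0 is uncertain. Differences between these short lists were not tested.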

How the data were processed

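The authors' deposited file is a merged list of 92842 peaks from 14 ATAC-seq libraries of 7 cell types. Per the file header, genes were assigned with annotatePeaks for build mm10. HOMER 4.10.2 is the version in the submitters' processing notes. The aligner, peak caller, calling threshold and way of merging were not given in the sources used here. The deposited distance to the nearest TSS is in bp, signed, and the deposited peak score is 0 for every peak, so neither depth nor peak height is known. Every peak has a width of 499 bp. A peak carries the name of the gene with the nearest start, whether or not it acts on that gene.

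Members were matched by gene name. Members and lists were chosen with earlier results of these data known. The background was all coding genes with a peak whose RefSeq entry (GRCm38.p6) is on the chromosome of the peak, which left out 435 peaks. No library values were analysed, so no test was run and differences are given as counts, medians and exact (Clopper-Pearson) 95% intervals, computed with SciPy 1.17.1 and pandas 2.3.3 in Python 3.11.15. Every member is named with its peaks, with all positions for primary granule and oxidase genes and the peak nearest to the start for others with a peak within 1 kb. Of the other lists, the 3 genes with the most peaks and all without a peak are named, except 1 gene that is not reported here, and others were added after their values were seen. Granule classes were set by hand from general knowledge. Motif and distance counting was tested on simulated data. The protein comparison that had been planned for the lysozymes was not made, and their promoter windows were aligned instead. Alternatives were other distances, windows, motifs and class choices.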

Additional observations from a re-analysis of the deposited data

How the results depend on the processing

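Of 24 alternatives to 10 results, 19 left the value within its 95% interval or, for counts and medians, within 1.5 times, and 5 did not. Peaks near members given to other genes were 16 within 5 kb and 56 within 25 kb, as a wider window holds more. With the strict C/EBP letters TTGCGCAA no member promoter matched (0%), but only 0.221% of other coding promoters do, so 26 windows are too few to show a difference. With the strict PU.1 letters GAGGAAGT the share was 19.2% (other coding promoters 3.11%), and in only the 150 bases before the start 30.8% (13.7%). The C/EBP share there was 15.4% (5.05%), with an interval of 4.36 to 34.9 that includes the background. Leaving out Azi2 left the median at 4 peaks. A stricter peak score could not be used, because the score is 0 throughout, and leaving out libraries could not be done on a merged list. No paired analysis was possible because the list holds no values per library.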
